A study of Homo sapiens with 6 samples.

Results

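Fumarate is a 4-carbon acid of the tricarboxylic acid (TCA) cycle, and 10 genes that encode enzymes making it, using it or handling its product malate are described here: FH, SDHA, SDHB, SDHC, SDHD, MDH1, MDH2, ADSL, ASL and FAH. They were chosen by name, with earlier results of these data known, and all 10 were found in the table of 60709 genes. All 10 had at least 10 counts in every library, a minimum met by 22.9% of all genes and 62.2% of protein-coding genes. The study used SH-SY5Y, a long-established cell line from a human neuroblastoma, and exposed it to a fumarate joined to a peptide derived from NRF2, the transcription factor for antioxidant genes that fumarates are known to activate. The labels describe 3 control wells given 10 uL of DMSO and 3 wells given Nrf2-peptide-linked fumarate dissolved in water together with DMSO, all lysed after 5 h and profiled by sequencing of messenger RNA. Of the 6 count columns, 3 carry the numbers of the control samples (4, 5 and 6) and 3 carry numbers that the labels give to none, so only the control libraries are described and no effect of the peptide is given. If the headings do not follow the labels' numbering, the libraries called control here could be the treated ones.

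In the TCA cycle, succinate dehydrogenase oxidises succinate to fumarate, fumarase (FH) adds water to fumarate to give malate, and malate dehydrogenase oxidises malate to oxaloacetate. MDH1 and MDH2 therefore act on malate and not on fumarate itself. Outside the cycle, fumarate is split off by adenylosuccinate lyase (ADSL) in purine synthesis, by argininosuccinate lyase (ASL) in arginine synthesis and by fumarylacetoacetase (FAH) at the end of tyrosine breakdown. Loss of FH or of succinate dehydrogenase lets fumarate or succinate build up in certain hereditary tumours, and fumarate can bind to cysteines of KEAP1, the protein that holds NRF2 in check.

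The 3 libraries held 8887854 to 11397407 counts, and mitochondrially encoded genes took 4.11%, 3.83% and 6.25% of them in replicates 1, 2 and 3. Of 9 noradrenergic neuroblastoma markers, 8 passed the same minimum, with the transcription factor HAND2 the highest at 7643 to 10679 counts and TH, tyrosine hydroxylase, at 0 throughout, and their summed level was 2792 to 3150 CPM. Of 5 mesenchymal-like markers 4 passed (VIM the highest, PRRX1 at 0), with a sum of 468 to 522 CPM that was highest in replicate 3. Of 4 fibroblast markers 3 passed (LUM the highest, COL1A2 at 1 to 3 counts), with a sum of 33.9 to 34.8 CPM. Of 3 leukocyte markers CD14 alone passed, at 14 to 25 counts, with PTPRC at 1, 1 and 0 and CD3E at 0. None of the 3 liver markers ALB, APOA1 and TTR passed. The labels do not say whether the wells came from separate cultures, so the spread given here may be technical. Levels in a library are given as CPM, counts per 1000000 of the scaled library total. Genes are compared with each other only as TPM, which also divides by length. Coding TPM uses the length of the coding sequence and covers protein-coding genes, and transcript TPM uses the longest annotated transcript. The 2 lengths give different values: both are given for the 10 genes, and the pathway lists are described per coding length, with their medians per longest transcript.

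Of the 10 genes, 6 share coding sequence with other genes annotated in GENCODE 29, and SDHB, MDH1, MDH2 and FAH do not. Reads that fall in exons of more than 1 gene are left unassigned by featureCounts at its default setting, as are reads that align to several places; the settings used for this table are not given in the sources used here. In GENCODE 29, on GRCh38, 89.9% of the coding bases of ADSL (chr22:40346500-40390463, plus strand) lie within exons of a second protein-coding model on the same strand, ENSG00000284431. For SDHD (chr11:112086773-112120013, plus strand) the share was 65.8%, with ENSG00000255292, and for ASL (chr7:66075798-66093558, plus strand) it was 40.4%, with ENSG00000249319. Each of these 3 models was listed at 0 counts in each library. No coding base of the other 7 genes was shared in this way in GENCODE 29, which lacks 2246 of the table's genes. Overlap with those genes could not be checked, for SDHA as for the rest. A share of 50% or more was held by 2 of the 10 genes, against 6.87% of 19913 protein-coding genes. Of the 1369 genes with such a share, 34.9% reached 10 counts in each library, against 64.0% of the 17665 genes that shared no coding base. The first class also takes in models that lie mostly inside the exons of another gene. The 2 classes may therefore hold different kinds of genes. The part this sharing plays in any single value was not tested.

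Copies elsewhere in the genome were counted separately, as 75-base windows of the coding sequence found letter for letter in a transcript of a gene at another locus. Such windows made up 44.4% of SDHD, 17.8% of SDHC, 12.5% of SDHA and 0.824% of FH, and none of the other 6 genes. The table lists 19 genes named as pseudogenes of the 10. Of these, 11 had 0 counts throughout and 5 had at most 5 counts in any library, and the remaining 3 were all copies of SDHA. Genes that share windows under other names are not among the 19, and their counts are not given here. They include ENSG00000238084, with 28.8% of the SDHD windows, and ENSG00000108958, with 12.9% of those of SDHC. MUC20-OT1 holds 2.61% of those of SDHA. SDHAP3 had 255, 283 and 188 counts, SDHAP4 had 138, 156 and 103, and SDHAP1 had 132, 128 and 71, where SDHA itself had 115, 120 and 87. SDHAP1 matched SDHA over 1986 of 1992 coding bases with 95.7% identity, and SDHAP3 over 292 bases with 97.9%. The 60 bases from coding position 1291 to 1350 of SDHA (counted from the A of the start codon) are shown with both copies. This is the first stretch of that length in which both copies align without gaps and each differs from SDHA. It does not stand for the rest of the sequence. Capitals mark the positions at which any of the 3 differ.
SDHA: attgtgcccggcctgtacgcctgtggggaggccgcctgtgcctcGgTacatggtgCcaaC
SDHAP1: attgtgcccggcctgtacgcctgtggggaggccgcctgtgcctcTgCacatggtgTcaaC
SDHAP3: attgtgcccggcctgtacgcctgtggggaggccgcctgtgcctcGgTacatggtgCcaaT
In this stretch SDHAP1 differs from SDHA at 3 bases and SDHAP3 at 1. The plot of shared coding sequence sets both kinds of sharing side by side.

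**Figure D1:**
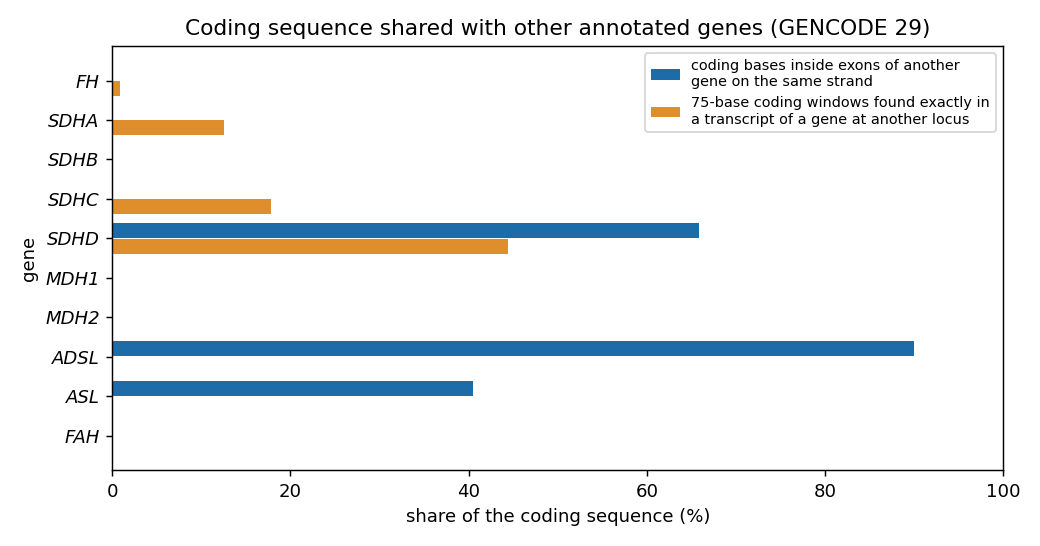
Share of each gene's coding sequence, in percent on the horizontal axis, that lies in exons of another gene on the same strand (blue) or recurs as exact 75-base windows in transcripts from another locus (orange), from GENCODE 29. ADSL, SDHD and ASL have the blue bars, SDHD, SDHC, SDHA and FH the orange ones, and SDHB, MDH1, MDH2 and FAH have neither.

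Succinate dehydrogenase, complex II of the respiratory chain, is made of the flavoprotein SDHA, the iron-sulphur protein SDHB and the membrane anchors SDHC and SDHD. SDHB (ENSG00000117118.10, chr1:17018722-17054170, minus strand) had 739, 810 and 636 counts, or 69.1, 70.9 and 71.8 CPM, with a mean of 70.6 ± 1.38 CPM (SD, n = 3). The 3 values lay closer together than those of any other of the 10 genes, with a coefficient of variation of 1.95%. SDHC (ENSG00000143252.16, chr1:161314257-161375340, plus strand) had 60.1, 56.6 and 52.4 CPM, with a mean of 56.4 ± 3.87 CPM from 464 to 647 counts. SDHC was lowest in replicate 3 and SDHB was not.

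SDHA (ENSG00000073578.17, chr5:218241-256700, plus strand), the catalytic subunit that holds the flavin, was measured at 10.8, 10.5 and 9.82 CPM, a mean of 10.4 ± 0.480 CPM (n = 3). It was the lowest of the 10 genes on the coding TPM scale, at 5.87 ± 0.328, which is percentile 16.2 of the 12396 genes with an annotated coding sequence that passed the minimum of 10 counts. SDHB was at 94.9 ± 1.20 coding TPM, percentile 82.6. The level of SDHB relative to SDHA was 15.2, 16.0 and 17.3 in replicates 1, 2 and 3 per coding length, and 16.7, 17.6 and 19.0 per longest transcript. The other subunits gave other ratios: SDHD stood at 3.89, 5.15 and 7.87 times SDHA per coding length and 1.94, 2.57 and 3.93 times per longest transcript. SDHC stood at 22.0, 21.2 and 21.0 times SDHA per coding length, but at 1.24, 1.19 and 1.18 times per longest transcript. SDHA was thus the lowest of the 4 subunits by both lengths, by an amount that depended on the length for SDHC and SDHD. Reads of SDHA that were left unassigned or counted for its copies would lower its value, and reads of the copies counted for SDHA would raise it. Neither number was measured.

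SDHD (ENSG00000204370.13) gave the widest spread of the 10 genes. Its counts were 107, 148 and 164, although replicate 3 was the smallest library. Its levels were 10.0, 13.0 and 18.5 CPM, a mean of 13.8 ± 4.32 CPM (n = 3), with replicate 3 at 1.85 times replicate 1. Among 10313 genes whose mean count was 100 or more, 2.28% had a highest level at least 1.5 times the lowest, and SDHD was the 1 gene of the 10 among them. The coefficient of variation was 31.3%, against a counting error of 8.46% and a median of 10.2% over the 1769 genes with a mean of 100 to 200 counts. On the opposite strand, TIMM8B shares 26 bases of the longest SDHD transcript, as WDPCP does 191 bases of MDH1 and CFAP126 774 bases of SDHC, none of them coding.

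**Figure D2:**
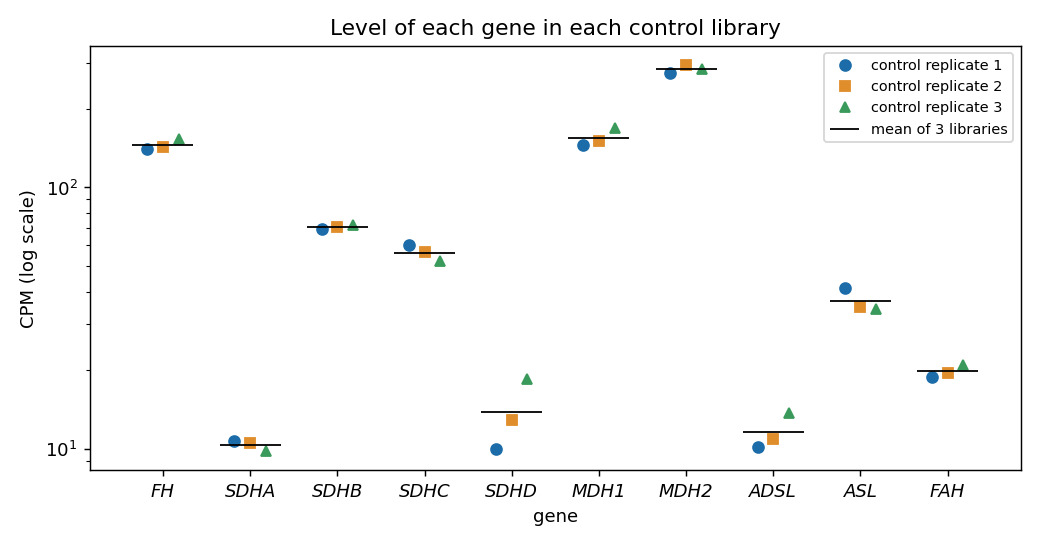
Level of each of the 10 genes in the 3 control libraries, as CPM on a log axis, with the mean of the 3 as a line. MDH2, MDH1 and FH lie above 100 CPM, SDHA, SDHD and ADSL lie near 10 CPM, and SDHD has the widest spread, from 10.0 to 18.5 CPM.

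FH (ENSG00000091483.7, chr1:241497603-241519761, minus strand), the enzyme that consumes fumarate in the TCA cycle, had 1497, 1639 and 1355 counts. Its levels were 140, 143 and 153 CPM, with a mean of 145 ± 6.75 CPM (n = 3) and a coefficient of variation of 4.64%. On the coding TPM scale it stood at 107 ± 3.92, percentile 84.8. Its pseudogene FHP1 had 0, 1 and 0 counts, and less than 1% of the coding windows of FH recur elsewhere.

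The malate dehydrogenases were the most abundant of the 10 genes by either length. MDH2 (ENSG00000146701.12, chr7:76048051-76067508, plus strand), which works in the mitochondrial matrix, had 274, 294 and 284 CPM from 2512 to 3354 counts, a mean of 284 ± 9.53 CPM (n = 3). MDH1 (ENSG00000014641.21, chr2:63588609-63607197, plus strand), the cytosolic enzyme of the malate-aspartate shuttle, had 145, 150 and 168 CPM, a mean of 155 ± 12.2 CPM. MDH1 was highest in replicate 3, the library in which MDH2 was intermediate. The ratio of MDH2 to MDH1 per coding length was 1.87, 1.93 and 1.66, a mean of 1.82 ± 0.138. Per longest transcript it was 1.41, 1.46 and 1.26. MDH2 was thus the higher of the pair in each library by both lengths. FH stood at 0.340 ± 0.0169 of the coding TPM of MDH2, and at 0.630 ± 0.0313 of its transcript TPM.

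The 3 genes that release fumarate outside the TCA cycle were lower than FH by both lengths. ASL (ENSG00000126522.17) had 443, 400 and 305 counts, or 41.4, 35.0 and 34.4 CPM, a mean of 37.0 ± 3.88 CPM (n = 3). FAH (ENSG00000103876.13, chr15:80152490-80186946, plus strand) had 18.9, 19.5 and 21.0 CPM, a mean of 19.8 ± 1.09 CPM from 186 to 223 counts. ADSL (ENSG00000239900.14) had 109, 125 and 122 counts, or 10.2, 10.9 and 13.8 CPM, a mean of 11.6 ± 1.89 CPM. ASL was highest in replicate 1, and ADSL and FAH were highest in replicate 3. ADSL, with most of its coding sequence shared, stood at 9.04 ± 1.38 coding TPM, percentile 22.7.

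Ordered by coding TPM, the genes ran MDH2 (316 ± 10.8), MDH1 (174 ± 12.0), SDHC (126 ± 9.75), FH (107 ± 3.92), SDHB (94.9 ± 1.20), SDHD (32.7 ± 9.88), ASL (30.0 ± 3.35), FAH (17.8 ± 0.801), ADSL (9.04 ± 1.38) and SDHA (5.87 ± 0.328), each with n = 3. Of the 9 pairs of neighbours in this order, the ranges of SDHD and ASL overlapped (23.8 to 43.3 and 27.6 to 33.8) and the other 8 did not. The longest transcript gave another order below MDH1: MDH2 (369 ± 17.9 transcript TPM), MDH1 (268 ± 13.6), FH (232 ± 5.01), SDHB (176 ± 3.91), ASL (49.5 ± 6.00), SDHD (27.4 ± 7.78), FAH (16.6 ± 0.494), SDHC (11.9 ± 1.12), SDHA (9.91 ± 0.731) and ADSL (7.63 ± 1.01), with no overlap between neighbours. SDHC went from the third place to the eighth. The longest SDHC transcript in GENCODE 29 has 13566 bases against 507 coding bases, so SDHC has no settled place. MDH2, MDH1, FH and SDHB kept their order among themselves with both lengths, and SDHA and ADSL were the lowest 2 with both. The median of the 10 genes was 63.8 coding TPM, and the median of all 12396 genes was 28.4. Per longest transcript the medians were 38.4 and 28.0.

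**Figure D3:**
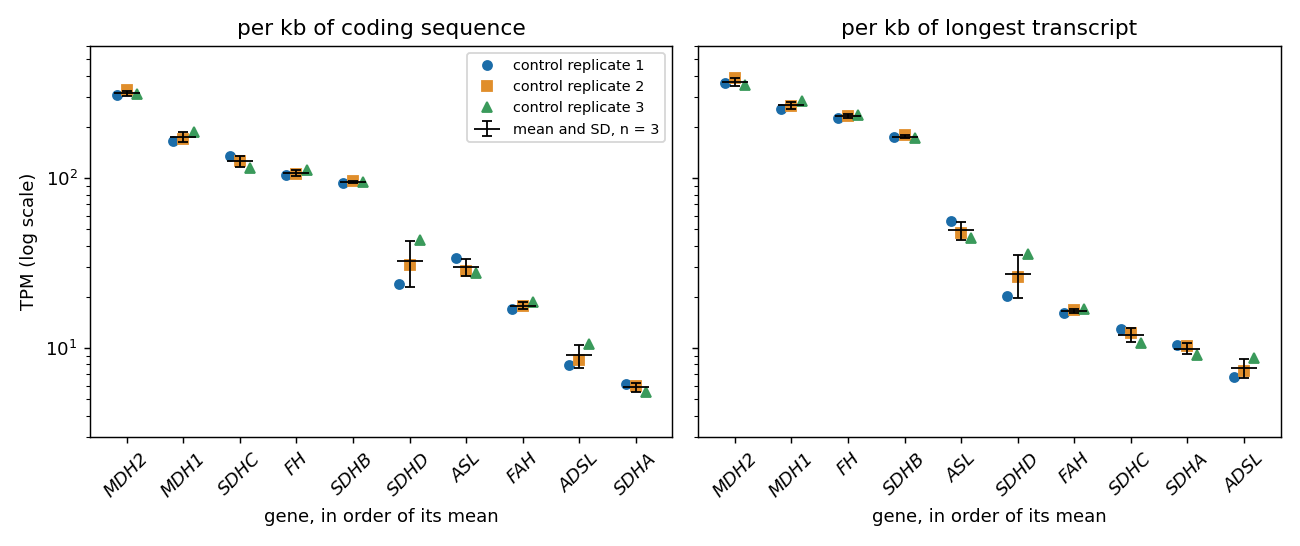
TPM on a log axis for the 10 genes in order of their mean, per coding length (left) and per longest transcript (right), with the 3 control libraries as symbols and the mean and SD in black. MDH2 and MDH1 lead in both panels, and SDHC goes from 126 on the left to 11.9 on the right.

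The 10 genes together made up 780.1, 803.8 and 826.8 CPM in replicates 1, 2 and 3. Across libraries, 8 of the 10 genes kept their highest level under 1.25 times their lowest. The 2 that did not were SDHD and ADSL, whose ratios were 1.85 and 1.35. Of the 10313 genes whose mean count was 100 or more, 21.6% passed 1.25 times, so a count of 2 in 10 is near the background. SDHD and ADSL are also the 2 genes with over 50% of their coding bases shared. Among protein-coding genes with that mean, 35.5% of the 245 with such a share passed 1.25 times, against 20.9% of the 9323 with none shared. These shares are a description of the 3 libraries, and the 2 classes of genes were not matched for count. Whether sharing plays a part in the spread of SDHD and ADSL was not tested. The median coefficient of variation was 6.18% over the 10 genes and 7.31% over the 10313. Over the 1769 genes with a mean of 100 to 200 counts, a range that holds SDHD and ADSL, the median was 10.2%.

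Replicate 3 stood above both other libraries for 6 of the 10 genes (FH, SDHB, SDHD, MDH1, ADSL and FAH) and below both for 3 (SDHA, SDHC and ASL), against 39.8% and 43.7% of the 10313 genes. Replicate 3 differed from the others along GC content: its median difference was positive for genes of low GC and negative for genes of high GC. SDHD, with 41.0% GC, exceeded the mean of replicates 1 and 2 by 0.69 on the log2 scale, and by 0.56 once the GC trend was removed. With the trend removed its levels were 10.6, 13.0 and 17.4 CPM, a ratio of 1.65, and 0.564% of 10290 nuclear genes reached 1.5. ADSL exceeded it by 0.38 and, with the trend removed, by 0.35. SDHD and ADSL still passed 1.25 times between highest and lowest, 2 of the 10 genes, as did 9.13% of the 10290. For ASL, with 59.4% GC, the difference went from -0.15 to 0.01, and for SDHC, with 42.6% GC, from -0.16 to -0.25. For SDHA, SDHB, FH, MDH1, MDH2 and FAH the differences lay between -0.11 and 0.19, and with the trend removed between -0.08 and 0.21. The upper end was then FAH, which went from 0.13 to 0.21.

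**Figure D4:**
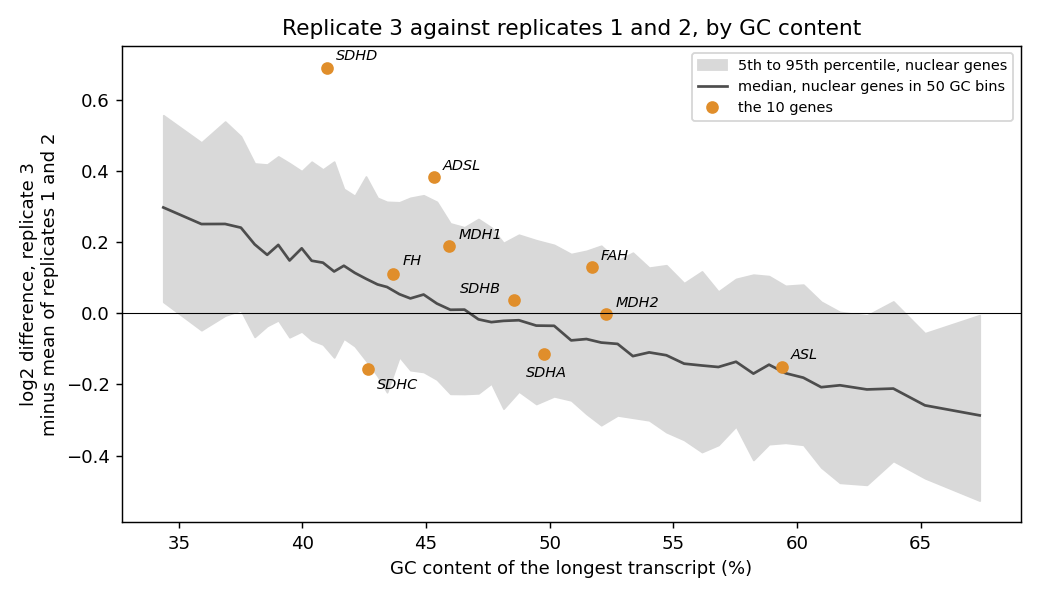
Log2 difference between replicate 3 and the mean of replicates 1 and 2 against the GC content of the longest transcript, for the 10 genes (orange) over the median (line) and the 5th to 95th percentile (grey) of 10290 nuclear genes. SDHD at 0.69 and ADSL at 0.38 lie above the grey band, SDHC at -0.16 lies below it, and ASL at -0.15 lies on the median line.

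The genes around these enzymes were described from lists chosen by pathway. Of 12 other TCA cycle genes, 12 had at least 10 counts in every library, with a median of 62.3 ± 0.731 coding TPM (SD, n = 3), or 101 ± 4.70 transcript TPM. The highest was CS, citrate synthase, at 191 ± 10.0, below MDH2, and the lowest was SUCLG2, a subunit of succinyl-CoA ligase, at 21.5 ± 2.14. SDHA was lower than each of the 12 by both lengths. The 4 assembly factors of succinate dehydrogenase all passed 10 counts, with a median of 36.8 ± 1.42 coding TPM, or 22.4 ± 1.76 transcript TPM. SDHAF1, which serves the iron-sulphur subunit, was the highest at 70.5 ± 2.19 coding TPM, and SDHAF2, which adds the flavin to SDHA, was the lowest at 22.9 ± 3.40, with 100% of its coding bases shared with another gene. Per longest transcript SDHAF3 was marginally the lower, at 14.0 ± 1.21 against 14.3 ± 2.39.

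Of 10 genes that carry or convert malate and aspartate, 9 passed 10 counts, with a median of 33.4 ± 1.60 coding TPM, or 29.5 ± 1.40 transcript TPM. GOT2, the mitochondrial aspartate aminotransferase, was the highest at 119 ± 6.10. GOT1, its cytosolic partner, was at 62.8 ± 3.35. ME3, a mitochondrial malic enzyme, had 1 count in each library.

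Of 12 genes of purine synthesis and interconversion, some before ADSL and some after it, 11 passed 10 counts, with a median of 35.8 ± 3.03 coding TPM, or 50.6 ± 0.910 transcript TPM. PAICS, which makes the substrate of the first ADSL reaction, was the highest per coding length at 208 ± 7.44. Per longest transcript IMPDH2, which acts on the guanine branch, was the highest at 438 ± 20.6, with PAICS at 104 ± 2.80. ADSS2, which makes adenylosuccinate, the substrate of the second, was at 40.8 ± 5.49. ADSL, at 9.04 coding TPM with 89.9% of its coding bases shared, stood below PAICS and ADSS2 by both lengths. ADSS1, the other adenylosuccinate synthase gene of the list, was at 7.84 ± 0.464 coding TPM, with library values that overlapped those of ADSL. Per longest transcript ADSS1 was higher than ADSL, at 10.5 ± 0.721 against 7.63 ± 1.01. AMPD1, the muscle form of AMP deaminase, was at 0 throughout, a count that leaves room for 0.263 to 0.338 CPM.

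On the arginine route, 6 of 9 genes passed 10 counts, and the median was 0.594 ± 0.109 coding TPM, or 0.840 ± 0.0825 transcript TPM. ASS1, which makes the substrate of ASL, was at 26.4 ± 3.42 coding TPM, and ASL was at 30.0 ± 3.35, so the ranges of this pair overlapped on that scale. SLC7A1, a transporter that takes up arginine, was the highest at 110 ± 2.31. The urea cycle genes of liver were low: CPS1 had 57, 56 and 64 counts, OTC had 1 count in each library and ARG1 had 0. Of the nitric oxide synthases, NOS3 had 5, 5 and 3 counts, below the minimum, and NOS1, the gene at the median per coding length, had 27, 28 and 16.

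On the tyrosine route, 1 of the 4 genes described passed 10 counts, and the median was 0.277 ± 0.0220 coding TPM, or 0.477 ± 0.0284 transcript TPM. That gene was GSTZ1, the isomerase that makes the substrate of FAH, at 50.4 ± 2.74 coding TPM. The 3 other enzymes were close to the limit of detection: HPD had 4, 2 and 3, HGD had 2, 5 and 3, and TAT had 1, 1 and 0. FAH and GSTZ1 were thus counted at 186 to 329 reads per library while these 3 genes had at most 5 counts.

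**Figure D5:**
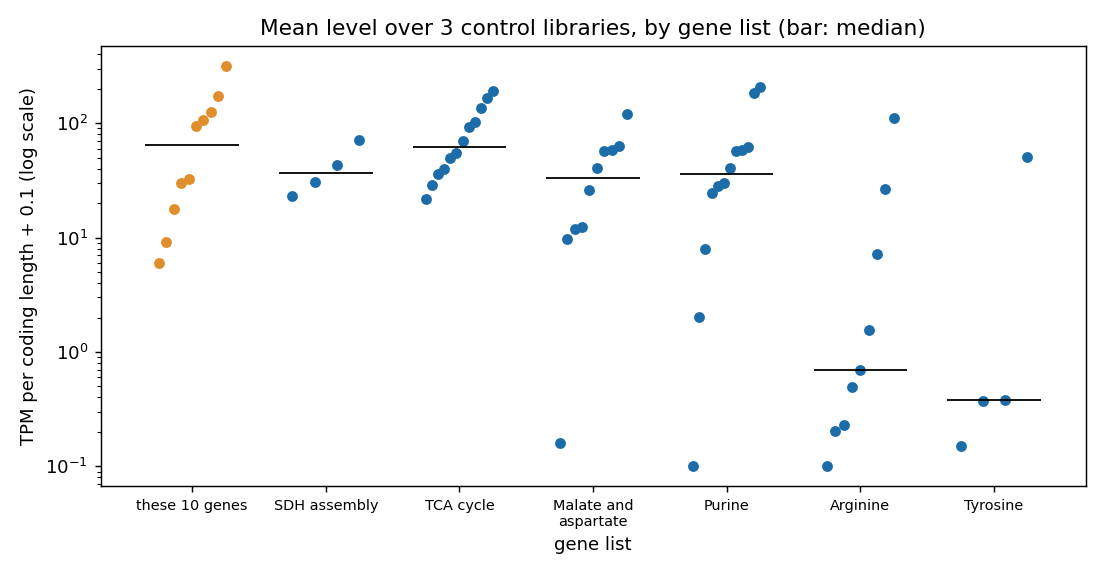
Mean coding TPM over the 3 control libraries, plus 0.1, on a log axis for each of the 10 genes (orange) and for the genes of 6 pathway lists (blue), with the median of each list as a bar. The tyrosine list has 1 gene far above the others, GSTZ1 at 50.4, and the arginine list spreads from 0 (ARG1) to 110 (SLC7A1).

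The regions around the start sites were searched for motifs in RefSeq sequences of 300 bases, 250 before and 50 after the start (GRCh38.p14). FH, SDHA, SDHB, SDHD, MDH1, MDH2, ASL and FAH matched; SDHC and ADSL are named only. The antioxidant response element to which NRF2 binds (TGACNNNGC, both strands) was found in FAH, 1 of the 8, and in 13.3% of 35116 promoters. The motif of NRF1, a factor unrelated to NRF2 and known for genes of respiration (GCGCA, any base, then GCGC, both strands), was found in SDHA and SDHD, and in 5.78% of all promoters. The ETS motif (CCGGAAGT, both strands) was found in SDHD and MDH2, and in 4.14% of all promoters. The matches to the first 2 motifs are shown because SDHA carries a repeat of this motif and FAH the single match to the response element; capitals mark the motif.
SDHA, chr5:218144-218173, plus strand: ggtccgctttGCGCAGGCGCggcgccccca
SDHA, chr5:218193-218222, plus strand: gtggcatggtGCGCAGGCGCgatgtccccc
SDHA, chr5:218242-218271, plus strand: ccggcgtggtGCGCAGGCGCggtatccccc
SDHA, chr5:218291-218320, plus strand: ccggtgtggtGCGCAGGCGCagtctgcgca
SDHD, chr11:112086753-112086782, plus strand: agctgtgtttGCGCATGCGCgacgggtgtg
FAH, chr15:80152917-80152945, plus strand: cggggtccctGCTGTGTCAcccggacagg
The FAH match reads on the minus strand. A match describes letters in a window and does not show binding, and no binding was measured.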

How the data were processed

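Messenger RNA of SH-SY5Y cells was sequenced from libraries made with a stranded kit, per the labels' protocols. Values are the authors' deposited counts for each Ensembl gene, not normalized. The submitters' processing notes name fastp 0.21.1, STAR 2.7.7a, featureCounts and GRCh38; annotation release, strand setting and treatment of shared reads are not given in the sources used here. Columns were matched to samples by heading: 3 columns matched no sample and were not used, and no test between groups was run. ANK2, whose entry is broken over several lines with no value in the columns used, was left out, which left 60709 genes.

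Counts were scaled to CPM with TMM factors (edgeR 4.0.16, R 4.3.3). Lengths, GC content, coordinates and exon overlap came from GENCODE 29, which may differ from the authors' annotation. The plan named the longest transcript; coding length was put first after the longest SDHC transcript was seen. The GC trend was the median deviation per library in 50 bins, and its removal was tested on simulated data. The simulation used a straight trend and the same spread for all genes, so it says little about single genes such as SDHD. Genes were named by rule: the 10 genes, their pseudogenes and a choice from each pathway list. The choice was the highest, the lowest and those under 10 counts, not all of which are printed. GOT1, NOS1, ASS1, CPS1, ADSS1, ADSS2, SDHAF3 and IMPDH2, and the markers printed, were picked with their values in view. One gene of the pathway lists is not reported here. The members and lists were chosen with earlier results of these data known. Alternatives were RLE factors, library size alone, removal of mitochondrial genes or of the GC trend, other lengths and count minimums, and each library left out. Python 3.11.15, numpy 2.4.6, pandas 2.3.3 and Biopython 1.88 were used.

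Totals were 10683037, 11397407 and 8887854 counts. Limits for a gene at 0 are 3 counts of the library and cover counting error only.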

Additional observations from a re-analysis of the deposited data

How the results depend on the processing

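With the longest transcript in place of the coding length, the median of the 10 genes went from 63.8 to 38.4 TPM. SDHB relative to SDHA went from 16.2 to 17.8, SDHC relative to SDHA from 21.4 to 1.20, SDHD relative to SDHA from 5.64 to 2.81 and MDH2 relative to MDH1 from 1.82 to 1.38. The changes in the 4 ratios follow from the lengths alone. The change in the median also follows from the scaling, which per longest transcript takes in genes with no coding sequence. Leaving out each library in turn gave 15.6 to 16.7, 21.1 to 21.6, 4.52 to 6.51 and 1.77 to 1.90 for these 4 ratios, 62.9 to 66.3 TPM for the median, and 14012 to 14371 genes with at least 10 counts, against 13920. A mean of 3 libraries cannot move by 1 SD when 1 is left out, so these ranges say little about stability. Of 70 values, those of the 10 genes under 7 alternatives each, 4 moved by over 1 SD (FH, SDHA, SDHB and MDH2). The 70 include the left-out libraries, so the count of 4 says little about stability. All 4 moved with mitochondrial genes left out, which raised every gene by 4.97%. They are the genes whose coefficient of variation was below that rise, so a move marks a small spread and not a greater sensitivity. Minimums of 5 counts and 1 count gave 15316 and 19616 genes. The planned fits of peptide-treated against control libraries (edgeR, DESeq2, filters, left-out replicates) were not run. No paired analysis was possible because no count column could be tied to a peptide-treated well. Depth limits SDHA, SDHD and ADSL most, at 87 to 164 counts per library.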
